A study of Mus musculus with 6 samples.

Results

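The E2F transcription factors and the RB pocket proteins form the switch that ties entry into S phase to the activity of cyclin-dependent kinases. Transcripts of 10 of these genes were examined in a mouse leukemia line treated with an inhibitor of the arginine methyltransferase PRMT5. The genes were picked out by their symbols in a table of 11644 genes. They are the E2F genes E2f1, E2f2, E2f3, E2f4, E2f6, E2f7 and E2f8 and the pocket protein genes Rb1, Rbl1 and Rbl2, and all 10 were present.

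As background, E2F proteins bind promoters of replication and division genes, most of them as dimers with a DP protein. E2F1, E2F2 and E2F3 are usually described as activators, E2F4 as a repressor that works with pocket proteins, E2F6 as a repressor that works with Polycomb proteins, and E2F7 and E2F8 as atypical repressors that bind DNA without DP and do not bind pocket proteins. RB, p107 (from Rbl1) and p130 (from Rbl2) hold E2F in check until cyclin-dependent kinases phosphorylate them, and p107 and p130 also join the MuvB proteins in the DREAM repressor complex. PRMT5 is known to methylate E2F1 protein in other cells, an event that transcript levels do not show.

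The inhibitor libraries (Prmt5i) came from MLL-ENL/NrasG12D cells given EPZ 015666 at 5 µM, with a repeat dose on day 2, and RNA was taken after 72 h. The DMSO libraries came from the same cells given solvent alone on the same schedule, so both groups carry the MLL-ENL fusion and the activated Nras allele. There were 3 polyadenylated RNA libraries in each group. The series calls them independent replicates without saying what was repeated, so the p-values measure the spread between these libraries, which may be technical, and whether the line is 1 clone is not given in the sources used here. EPZ 015666 blocks the enzyme's activity, and Prmt5 transcript stood at 2508 ± 373 normalized counts in Prmt5i and 2784 ± 366 in DMSO (SD, n = 3 each; limma adjusted p = 0.316). A normalized count is a read count divided by the library's size factor.

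Reads assigned to genes numbered 11335948 to 15551525 in the Prmt5i libraries and 15505127 to 19197912 in the DMSO libraries. The blood marker Ptprc averaged 6867 normalized counts in Prmt5i and 6900 in DMSO. Of 5 listed erythroid markers none was in the table, and the single measured T-cell marker (Lck), B-cell marker (Cd79b) and stromal marker (Pdgfrb) each stayed below 30 normalized counts in every library. The measured endothelial markers, Pecam1 and Cdh5, were not low, with sums of 3570 to 3990 in Prmt5i and 3010 to 3630 in DMSO. The epithelial markers Epcam and Cdh1 summed to 62.3 to 81.1 in Prmt5i and 53.0 to 80.7 in DMSO. The summed level of 9 measured hematopoietic and myeloid markers was 30700 to 35000 in Prmt5i and 15600 to 17200 in DMSO, higher in every Prmt5i library, and the part of this in the results below was not tested. DMSO library 2 stood apart from the other DMSO libraries on the second principal component (-29.2, against 13.5 and 12.3), and without it the same 6 members as reported below passed the test. In bulk RNA, fewer cells in cycle and less of a transcript per cell cannot be told apart.

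Transcripts of 6 of the 10 genes fell with the inhibitor and none rose. The falls were modest apart from that of E2f8, and they covered 5 of 7 E2F genes (E2f1, E2f2, E2f4, E2f6 and E2f8) and 1 of 3 pocket protein genes (Rbl1). Calls are limma tests over all 11644 genes at an adjusted p under 0.05, and by this rule 22.9% of all genes were lower and 23.6% higher. The median log2 fold change was -0.32 over the 10 members and 0.00 over all genes. In 8 members every Prmt5i library lay below every DMSO library, a pattern held by 27.9% of all genes. Each member was well covered, with at least 179 reads in its lowest library. The main test added no filter on low values, but the deposited table held no gene with fewer than 10 reads in its highest library.

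**Figure D1:**
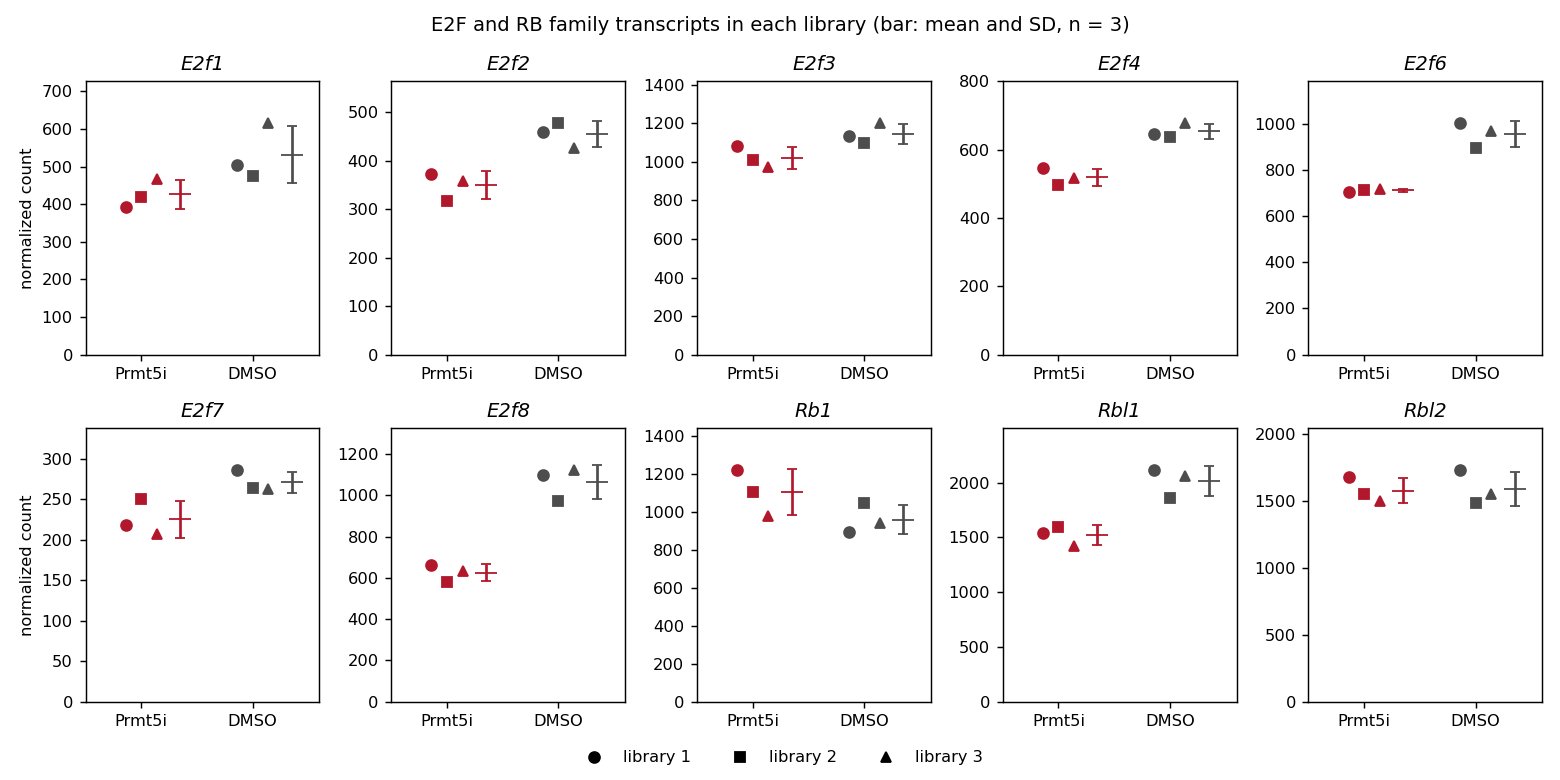
Normalized count (vertical axis, from 0) of each gene in each of the 6 libraries, Prmt5i left and DMSO right, with the mean and SD of 3 libraries beside the points. The groups are separate in 8 panels and overlap for Rb1 and Rbl2.

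E2f8 encodes an atypical repressor of E2F targets and lies on chromosome 7 (48866429 to 48881596, minus strand, mm10). Its start region is shown first because its transcript fell most. The regions of E2f7, its close relative, of Rbl1 and of E2f2 follow, and that of Rbl2 is shown because its transcript level was similar in the 2 groups. Each run has 250 bases before and 50 bases after an annotated start (RefSeq, GRCm38.p6), read 5′ to 3′ on the gene's strand, and capitals mark the E2F and CHR words named below.
E2f8 (chr7:48881547-48881846, minus strand): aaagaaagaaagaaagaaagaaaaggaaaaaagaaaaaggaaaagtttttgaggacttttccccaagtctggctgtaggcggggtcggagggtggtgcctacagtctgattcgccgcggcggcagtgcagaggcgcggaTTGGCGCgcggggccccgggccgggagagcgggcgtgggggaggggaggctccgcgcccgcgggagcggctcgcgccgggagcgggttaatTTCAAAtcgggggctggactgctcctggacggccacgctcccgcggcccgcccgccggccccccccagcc
E2f7 (chr10:110745189-110745488, plus strand): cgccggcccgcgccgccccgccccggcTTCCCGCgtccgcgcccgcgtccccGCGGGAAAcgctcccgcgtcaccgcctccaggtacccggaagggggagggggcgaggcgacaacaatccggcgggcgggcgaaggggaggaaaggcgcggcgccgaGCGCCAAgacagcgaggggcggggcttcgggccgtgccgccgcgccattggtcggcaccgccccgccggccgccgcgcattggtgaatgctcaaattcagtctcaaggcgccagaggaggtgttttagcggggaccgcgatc
Rbl1 (chr2:157204485-157204784, minus strand): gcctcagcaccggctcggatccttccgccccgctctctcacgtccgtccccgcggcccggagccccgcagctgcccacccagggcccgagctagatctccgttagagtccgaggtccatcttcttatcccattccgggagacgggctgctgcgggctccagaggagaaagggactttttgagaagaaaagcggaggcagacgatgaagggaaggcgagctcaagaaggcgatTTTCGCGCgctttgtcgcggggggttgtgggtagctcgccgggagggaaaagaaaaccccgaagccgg
E2f2 (chr4:136172024-136172323, plus strand): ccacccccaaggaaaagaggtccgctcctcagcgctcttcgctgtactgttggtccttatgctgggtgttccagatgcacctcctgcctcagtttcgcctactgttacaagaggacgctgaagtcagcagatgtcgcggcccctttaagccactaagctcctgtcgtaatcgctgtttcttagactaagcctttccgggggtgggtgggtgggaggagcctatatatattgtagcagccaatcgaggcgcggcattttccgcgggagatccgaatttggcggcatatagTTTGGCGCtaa
Rbl2 (chr8:91069807-91070106, plus strand): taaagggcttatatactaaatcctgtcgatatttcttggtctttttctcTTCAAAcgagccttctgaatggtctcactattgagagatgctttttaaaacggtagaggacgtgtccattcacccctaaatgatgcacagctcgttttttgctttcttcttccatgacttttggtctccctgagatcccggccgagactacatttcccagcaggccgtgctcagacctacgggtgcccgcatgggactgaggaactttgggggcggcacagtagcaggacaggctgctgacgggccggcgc
The E2F words searched on both strands were the 8-letter sites TTTGGCGC, TTTCCCGC, TTTCGCGC and TTTGCCGC and their 7-letter cores without the first T, which overlap the full sites. The CHR word, the element bound by MuvB proteins, was TTTGAA, and CCAAT was also counted. Start regions were found for 8 of the 10 genes, in 10 windows; E2f4 and Rb1 had none in the table used. In E2f8 a 7-letter core (TTGGCGC) stood 111 to 105 bases before the start, sharing bases with a CCAAT word on the other strand, and a CHR word on the other strand stood 20 to 15 bases before it. In Rbl1 the site TTTCGCGC stood 18 to 11 bases before the start, and in E2f2 the site TTTGGCGC stood at bases 40 to 47 after it. E2f7 held the site TTTCCCGC on the other strand 198 to 191 bases before its start, with cores 223 to 217 and 92 to 86 bases before it. Rbl2 held no E2F word and a CHR word on the other strand 201 to 196 bases before its start.

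An 8-letter site was present in 4 of the 10 windows, from 4 of the 8 members (E2f2, E2f3, E2f7 and Rbl1), against 2.26% of 32851 windows of this length over all genes. A 7-letter core was present in 5 of the 10 windows, from the same 4 members and E2f8, against 9.57% of all windows, and a CHR word in 4 (E2f2, E2f3, E2f8 and Rbl2), against 17.9%. CCAAT was present in 5 of the 10 windows, over 4 members, and in 37.4% of all windows. Of the 5 members with an E2F word, E2f2, E2f8 and Rbl1 fell, and E2f3 and E2f7 did not pass the test. Of the 3 without one, E2f1 and E2f6 fell and Rbl2 did not pass. The E2f1 window begins at an alternative start inside the annotated gene, not at its 5′ end. E2f2 and E2f3 each had another window, also at a start inside the annotated gene. The CHR word of E2f2 lay only in that other window, while its E2F site lay in the region printed above.

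Among the activators E2f1 and E2f2 fell and E2f3 did not pass. E2f1, on chromosome 2 (154559407 to 154569892, minus strand), had 392, 420 and 468 normalized counts in Prmt5i libraries 1 to 3, and 505, 474 and 617 in DMSO libraries 1 to 3. The groups did not overlap, but the highest Prmt5i value and the lowest DMSO value lay close together. The means were 427 ± 38.4 in Prmt5i and 532 ± 75.1 in DMSO (SD, n = 3 each), which gave a log2 fold change of -0.31 ± 0.12 (SE) just past the threshold (limma adjusted p = 0.0460). The call was lost without Prmt5i library 1 (limma adjusted p = 0.135) or 2 (0.124), without DMSO library 1 (0.0646) or 3 (0.210), and with DESeq2 (0.0543).

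E2f2, on chromosome 4 (136172394 to 136196057, plus strand), had 373, 317 and 357 normalized counts in the Prmt5i libraries and 460, 478 and 425 in the DMSO libraries. All 3 Prmt5i values were below all 3 DMSO values. The fall was 23.1% of the DMSO mean (log2 fold change -0.38 ± 0.10 SE, limma adjusted p = 0.00977), and without Prmt5i library 2 it missed the threshold (0.0534). E2f3, on chromosome 13 (29906575 to 29986063, minus strand), did not pass: it averaged 1022 ± 57.6 normalized counts in Prmt5i and 1145 ± 53.5 in DMSO (SD, n = 3 each; limma adjusted p = 0.123). Its libraries read 1085, 1010 and 972 in Prmt5i and 1135, 1097 and 1203 in DMSO, narrowly separate. The 95% interval of its log2 fold change ran from -0.34 to 0.02, so falls of the size of those of E2f1 lie within it.

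E2f4, the partner of p107 and p130 in repression, and E2f6, the Polycomb-linked repressor, both fell. E2f4, on chromosome 8 (105297663 to 105305370, plus strand), had 545, 496 and 515 normalized counts in Prmt5i and 644, 637 and 678 in DMSO. The values were tight within each group and did not overlap. The log2 fold change was -0.33 ± 0.09 (SE; limma adjusted p = 0.00840). E2f6, on chromosome 12 (16810963 to 16839742, plus strand), had 705, 712 and 717 normalized counts in Prmt5i and 1004, 896 and 967 in DMSO. The Prmt5i libraries lay within a few counts of each other, well under the lowest DMSO library. Its mean was 25.6% lower in Prmt5i (log2 fold change -0.42 ± 0.08 SE, limma adjusted p = 0.00138). Both calls held without any 1 of the 6 libraries.

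Among the atypical repressors, E2f8 fell to 664, 579 and 634 normalized counts in the Prmt5i libraries, against 1100, 970 and 1123 in the DMSO libraries. Every Prmt5i library lay far below every DMSO library. The mean was 41.2% lower in Prmt5i, at 626 ± 43.1 against 1064 ± 82.4 in DMSO (SD, n = 3 each; log2 fold change -0.77 ± 0.09 SE, limma adjusted p = 5.43e-05). Its log2 fold change was lower than that of all but 6.73% of genes, and with a library left out it stayed between -0.83 and -0.71. E2f7, on chromosome 10 (110745439 to 110787384, plus strand), had 219, 250 and 207 normalized counts in Prmt5i and 286, 264 and 263 in DMSO. It leaned the same way by less and did not pass (log2 fold change -0.27, 95% interval -0.52 to -0.02, limma adjusted p = 0.0743).

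The 3 genes nearest to E2f8 in pattern, by distance of centred log2 values over the 6 libraries among 9100 genes with a mean of at least 100 normalized counts, were Pfas (distance 0.063), Pola2 (0.066) and Ncapd3 (0.079). Pfas encodes an enzyme of purine synthesis, Pola2 a subunit of DNA polymerase alpha, and Ncapd3 a condensin subunit. Pfas had 2357, 2035 and 2207 normalized counts in Prmt5i and 4004, 3520 and 4080 in DMSO, with its lowest value in library 2 of each group, as for E2f8. Since Pfas was chosen for its nearness to the E2f8 values in these libraries, this likeness is no separate result.

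**Figure D2:**
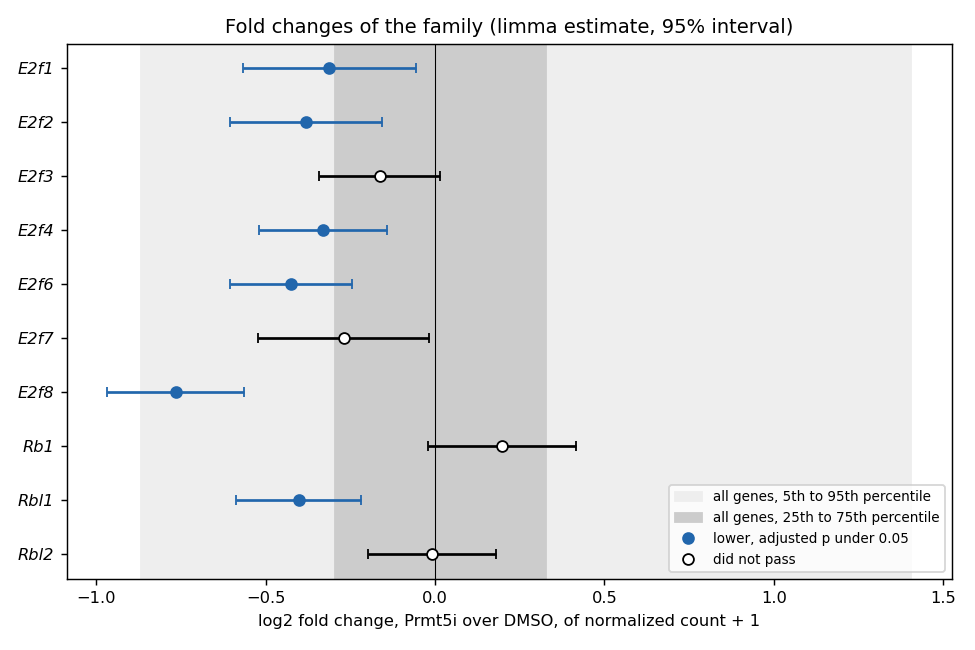
Log2 fold change of each gene, Prmt5i over DMSO, on the scale of normalized count + 1 (points, limma estimates; bars, 95% intervals; filled, adjusted p under 0.05), over grey bands for all genes. E2f8 lies farthest left at -0.77, and E2f3, E2f7, Rb1 and Rbl2 lie within the darker band, which holds the middle of all genes and runs from -0.30 to 0.33.

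The pocket protein genes did not move together. Rbl1, on chromosome 2 (157145893 to 157204534, minus strand), fell to 1544, 1596 and 1426 normalized counts in Prmt5i, against 2117, 1861 and 2063 in DMSO. The groups were clearly separate. The means were 1522 ± 87.0 in Prmt5i and 2014 ± 135 in DMSO (SD, n = 3 each; log2 fold change -0.40 ± 0.08 SE, limma adjusted p = 0.00219), and the call held without any 1 library.

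Rbl2, on chromosome 8 (91070057 to 91123844, plus strand), had 1680, 1552 and 1499 normalized counts in Prmt5i and 1732, 1481 and 1553 in DMSO. These values interleave, and the log2 fold change was -0.01, with a 95% interval of -0.20 to 0.18 (limma adjusted p = 0.940). Rb1, on chromosome 14 (73183673 to 73325822, minus strand), had 1222, 1107 and 979 normalized counts in Prmt5i and 895, 1045 and 941 in DMSO. The groups overlapped, with a log2 fold change of 0.20 and a 95% interval of -0.02 to 0.41 (limma adjusted p = 0.126). Rb1 was called higher without Prmt5i library 3 (limma adjusted p = 0.0398). Exons of Rb1 overlap the spans of Rcbtb2 and Lpar6, and exons of Rbl2 the span of Aktip, all on the opposite strand. A span includes introns, and exons of the neighbours were not compared. Exons of E2f8 (Gm2788), E2f7 (1700020G17Rik) and Rbl2 (Gm45464) also overlap spans of opposite-strand transcripts. Those of Rb1 overlap the span of a same-strand one (Gm17233). No values of these further transcripts were used here. The strand setting of the counting is not given in the sources used here. Of the measured neighbours Rcbtb2 fell (386 in Prmt5i, 546 in DMSO), and Lpar6 (485 in Prmt5i, 383 in DMSO) and Aktip (226 in Prmt5i, 170 in DMSO) rose, and their part in the values of Rb1 and Rbl2 was not tested.

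Ratios of 2 transcripts within a library do not depend on the size factors, and 6 ratios, chosen with the values known, were compared. Rbl1 over Rbl2 was 0.919, 1.03 and 0.951 in Prmt5i libraries 1 to 3, and 1.22, 1.26 and 1.33 in DMSO libraries 1 to 3. Rbl1 therefore exceeded Rbl2 in count in every DMSO library and in 1 of 3 Prmt5i libraries. E2f8 over E2f7 was 3.04, 2.31 and 3.07 in Prmt5i, and 3.84, 3.68 and 4.27 in DMSO. E2f8 over E2f1 was 1.69, 1.38 and 1.35 in Prmt5i, and 2.18, 2.05 and 1.82 in DMSO. E2f8 was thus lower against both of these family members in every Prmt5i library than in any DMSO library. Rbl1 over Rb1 averaged 1.39 ± 0.107 in Prmt5i and 2.11 ± 0.300 in DMSO (SD, n = 3 each), again without overlap. For these 4 ratios the two-sided exact permutation p was 0.1, the smallest that 3 against 3 libraries allow, or 0.15 adjusted over the 6 ratios, so the design cannot pass 0.05. E2f1 over E2f4 overlapped between the groups (0.824 ± 0.0962 in Prmt5i, 0.812 ± 0.0861 in DMSO), and so did Rb1 over E2f1 (2.62 ± 0.512 in Prmt5i, 1.83 ± 0.344 in DMSO; SD, n = 3 each).

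**Figure D3:**
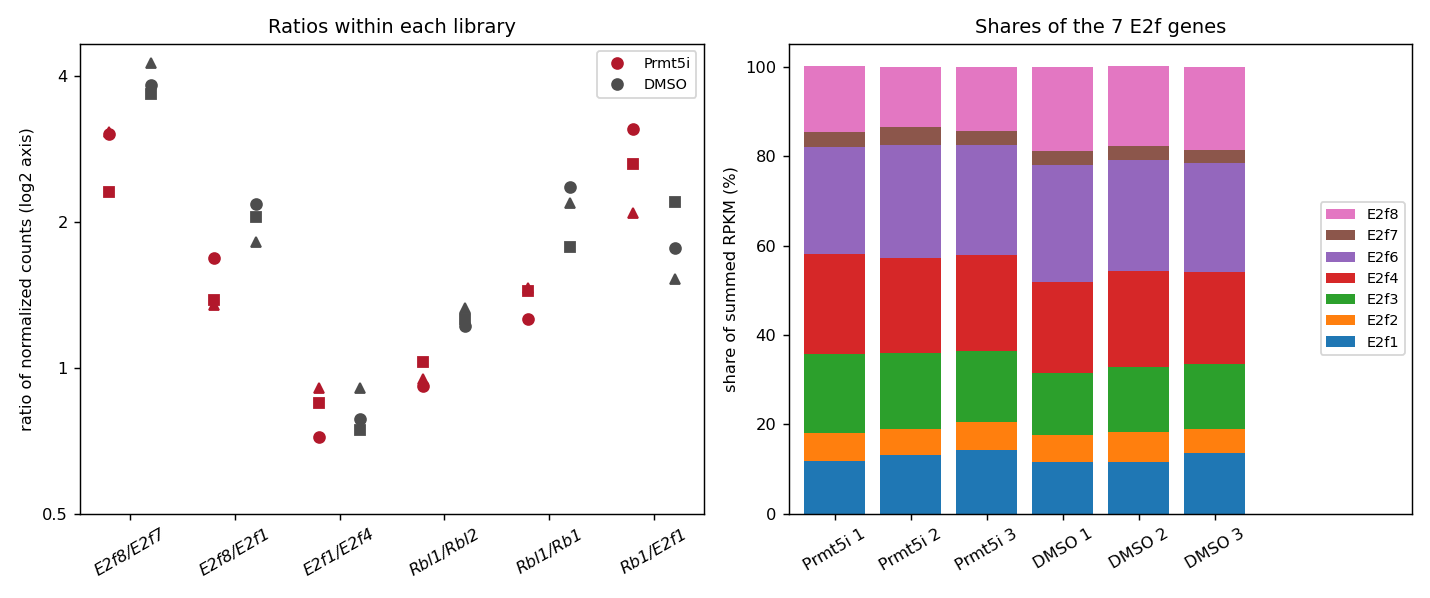
Left, ratios of normalized counts within each library (log2 axis; circle, square and triangle are libraries 1, 2 and 3). Right, share of each E2f gene in the summed RPKM of the 7 genes in each library, in which E2f8 takes 13.5% to 14.8% in Prmt5i and 17.7% to 18.7% in DMSO.

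Levels of different genes were set side by side as RPKM, that is reads per kilobase of the longest coding transcript scaled to the reads of the library, computed from whole reads recovered from the table. Among the E2F genes the DMSO order was E2f6 (25.6 ± 1.38 RPKM, SD, n = 3), E2f4 (21.2 ± 0.973), E2f8 (18.7 ± 1.51), E2f3 (14.6 ± 0.829), E2f1 (12.5 ± 1.91), E2f2 (6.21 ± 0.32) and E2f7 (3.21 ± 0.116). In Prmt5i E2f6 (18.6 ± 0.311 RPKM) and E2f4 (16.5 ± 0.759) still led, E2f3 (12.7 ± 0.625) stood above E2f8 (10.7 ± 0.747), and E2f1 (9.81 ± 0.971), E2f2 (4.67 ± 0.388) and E2f7 (2.60 ± 0.248) followed. E2f8 and E2f1 in Prmt5i, and E2f3 and E2f1 in DMSO, overlapped between libraries. E2f8 was thus the third in level in DMSO and the fourth in Prmt5i. With the mean length of coding transcripts E2f7 came to 4.48 RPKM in Prmt5i and 5.52 in DMSO, since several of its transcripts are short, and its mean was below that of E2f2 in both groups. Over the libraries it then overlapped E2f2 in Prmt5i (4.15 to 4.96 RPKM for E2f7, 4.23 to 4.95 for E2f2) but not in DMSO (5.37 to 5.74 for E2f7, 5.89 to 6.53 for E2f2).

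Among the pocket protein genes, levels in Prmt5i were 20.3 ± 1.06 RPKM for Rbl2, 19.8 ± 0.982 for Rbl1 and 15.0 ± 1.53 for Rb1 (SD, n = 3). In DMSO Rbl1 led with 26.8 ± 1.76 RPKM, followed by Rbl2 (20.9 ± 1.5) and Rb1 (13.4 ± 1.13). Rbl1 and Rbl2 differed by less than the spread between libraries in Prmt5i, whereas in DMSO each Rbl1 value was above each Rbl2 value. Rbl1 held 36.0% ± 1.40 of the summed pocket protein RPKM in Prmt5i and 43.9% ± 1.53 in DMSO, and Rb1 held 27.2% ± 1.23 in Prmt5i and 21.9% ± 2.57 in DMSO.

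The genes around the family are described next by lists chosen with earlier results of these data known. The counts in each list stand beside 22.9% of all genes lower and 23.6% higher. The DP partners differed from each other: Tfdp2 fell to 397, 398 and 361 normalized counts in the Prmt5i libraries, against 947, 1028 and 988 in the DMSO libraries. This is a log2 fold change of -1.36 ± 0.09 (SE; limma adjusted p = 5.35e-07), larger in size than that of any of the 7 E2F genes. Tfdp1, the more abundant DP transcript by count, had 5354 ± 73.6 in Prmt5i and 5875 ± 447 in DMSO (SD, n = 3 each) and did not pass (limma adjusted p = 0.229).

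Of 8 genes for the MuvB core and its MYB and FOXM1 partners, 4 fell and 1 rose. Lin54, the DNA-binding MuvB subunit, averaged 1041 normalized counts in Prmt5i and 1370 in DMSO, and Lin9 fell too. Mybl2, the B-MYB partner of MuvB in S phase, averaged 1426 in Prmt5i and 1798 in DMSO (limma adjusted p = 0.00920), and Foxm1, the mitotic activator, 809 in Prmt5i and 1043 in DMSO (0.00842). Mybl1, a relative of Mybl2, rose (313 in Prmt5i, 193 in DMSO; limma adjusted p = 0.00196). Without Prmt5i library 2, Mybl2 (limma adjusted p = 0.0550) and Foxm1 (0.0502) missed the threshold and 2 genes fell, and without DMSO library 1, 2 rose.

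Of 14 genes for Polycomb partners of E2F6, 3 fell (21.4%, against 22.9% of all genes) and 2 rose (14.3%, against 23.6%). E2f6 itself is not in this list. Pcgf6, the subunit that defines this Polycomb complex, averaged 267 normalized counts in Prmt5i and 425 in DMSO (limma adjusted p = 2.80e-04), and the ubiquitin ligase subunit Ring1 averaged 300 in Prmt5i and 407 in DMSO (0.00786). Max fell only just past the threshold (1061 in Prmt5i, 1236 in DMSO; limma adjusted p = 0.0454), a call lost when any library other than Prmt5i library 1 was left out (up to 0.127). In contrast Yaf2 (844 in Prmt5i, 656 in DMSO; limma adjusted p = 0.00657) and Hdac1 (1471 in Prmt5i, 1238 in DMSO; 0.0281) rose. The rise of Hdac1 was lost without Prmt5i library 1 or 2 or DMSO library 2 or 3, each leaving 1 rise, and 5 genes fell without Prmt5i library 1.

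Among 18 corepressors that pocket proteins recruit, 11 fell and 3 rose, with a median log2 fold change of -0.25. Sin3b, a histone deacetylase scaffold tied to E2F repression, rose to 2741, 2732 and 2896 normalized counts in Prmt5i, against 1533, 1468 and 1466 in DMSO (log2 fold change 0.91 ± 0.08 SE, limma adjusted p = 3.21e-06). Arid4b, a subunit of SIN3 complexes, rose by less (1649 in Prmt5i, 1254 in DMSO). The maintenance DNA methyltransferase Dnmt1 fell (7017 in Prmt5i, 11660 in DMSO; limma adjusted p = 1.10e-04), as did the corepressor Ctbp1 (2809 in Prmt5i, 4286 in DMSO; 1.01e-04). The number of falls was 6 without Prmt5i library 2, 7 without Prmt5i library 3 and 6 without DMSO library 3.

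Upstream of the pocket proteins, transcripts of 3 of 7 CDK inhibitors rose and 1 fell. Cdkn1a, which encodes p21, had 3230, 2904 and 2861 normalized counts in Prmt5i and 508, 773 and 549 in DMSO (log2 fold change 2.32 ± 0.13 SE, limma adjusted p = 2.30e-07). Rising with it were the INK4 genes Cdkn2b (80.6 ± 5.47 in Prmt5i, 11.3 ± 6.41 in DMSO) and Cdkn2a (396 ± 24.9 in Prmt5i, 239 ± 14.1 in DMSO) (SD, n = 3 each). Cdkn2c fell (1461 in Prmt5i, 1759 in DMSO; limma adjusted p = 0.0300), a call lost without Prmt5i library 2 or 3 or DMSO library 1 or 3, when 0 of the 7 fell.

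Of 14 measured cyclins and kinases that act on pocket proteins, 4 rose and 4 fell. Each is 28.6% of the list, near the 23.6% higher and 22.9% lower over all genes. Ccnd1, the cyclin D1 that starts RB phosphorylation, had 22350, 20650 and 18800 normalized counts in Prmt5i and 7503, 8787 and 7714 in DMSO (log2 fold change 1.36 ± 0.11 SE, limma adjusted p = 2.32e-06). Ccne2 rose as well (1822 in Prmt5i, 1139 in DMSO), while Ccna2, the S-phase cyclin and an E2F target, fell (3182 in Prmt5i, 4619 in DMSO; limma adjusted p = 9.99e-04). The related cyclins Ccnd2, Ccnd3 and Ccne1 did not pass. Rises numbered 2 without Prmt5i library 2 or DMSO library 3, and falls 1 without Prmt5i library 2 and 2 without DMSO library 1.

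Downstream, G1/S genes known as E2F targets were mostly lower: of 50, 28 fell, 1 rose (Tyms) and 21 did not pass, with a median log2 fold change of -0.32. Those with the smallest adjusted p were the DNA polymerase subunits Pold1 (1169 ± 119 normalized counts in Prmt5i, 2717 ± 234 in DMSO), Pole (1875 ± 91.6 in Prmt5i, 3467 ± 432 in DMSO) and Pola2 (983 ± 75.1 in Prmt5i, 1694 ± 115 in DMSO), and thymidine kinase, Tk1 (805 ± 20.0 in Prmt5i, 1518 ± 96.0 in DMSO; SD, n = 3 each). Members that did not pass include Rrm2 (3582 in Prmt5i, 3458 in DMSO), a subunit of ribonucleotide reductase. The rise of Tyms, the thymidylate synthase gene (1697 in Prmt5i, 1422 in DMSO; limma adjusted p = 0.0228), was lost without DMSO library 1 or 2 or Prmt5i library 2 (up to 0.0827). The log2 fold changes of the 50 genes ran from -1.22 to 0.26, and 45 of them were below 0.

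Of 30 G2/M genes known as targets of MuvB and FOXM1, 22 fell, none rose and 8 did not pass, with a median log2 fold change of -0.42. Mki67 averaged 7096 ± 159 normalized counts in Prmt5i and 18130 ± 3695 in DMSO, the mitotic phosphatase Cdc25b 355 ± 28.6 in Prmt5i and 733 ± 44.8 in DMSO, and the spindle checkpoint kinase Bub1b 2278 ± 236 in Prmt5i and 4167 ± 215 in DMSO (SD, n = 3 each). With a library left out, 17 to 24 of these genes and 20 to 32 of the G1/S genes fell.

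Of 9 measured apoptosis genes known as E2F1 targets, 4 rose, and E2f1 itself was lower as given above. Trp53inp1, also a p53 target, averaged 3060 normalized counts in Prmt5i and 630 in DMSO, and the BH3-only gene Bcl2l11 averaged 1748 in Prmt5i and 1239 in DMSO. Rises numbered 2 without Prmt5i library 1 or 2 or DMSO library 1 or 3, and with edgeR without a filter. Among 14 genes of E2F turnover and pocket protein dephosphorylation, 4 fell (28.6%, against 22.9% of all genes) and 2 rose (14.3%, against 23.6%). They include Cdc20, an activator of the anaphase-promoting complex (1552 in Prmt5i, 2178 in DMSO), Ppp2r3a, a PP2A subunit (124 in Prmt5i, 228 in DMSO), and Mdm2, the p53 ubiquitin ligase (5962 in Prmt5i, 1595 in DMSO). In that list 2 fell without Prmt5i library 2 or DMSO library 1 or 3, and 1 rose without Prmt5i library 2 or DMSO library 3.

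In the PRMT5 methylosome, Coprs rose (290 in Prmt5i, 118 in DMSO) and 3 of 5 genes did not pass. Wdr77 fell, only just past the threshold (1852 in Prmt5i, 2138 in DMSO; limma adjusted p = 0.0490), and that call was lost when any library other than DMSO library 2 was left out (limma adjusted p up to 0.195).

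**Figure D4:**
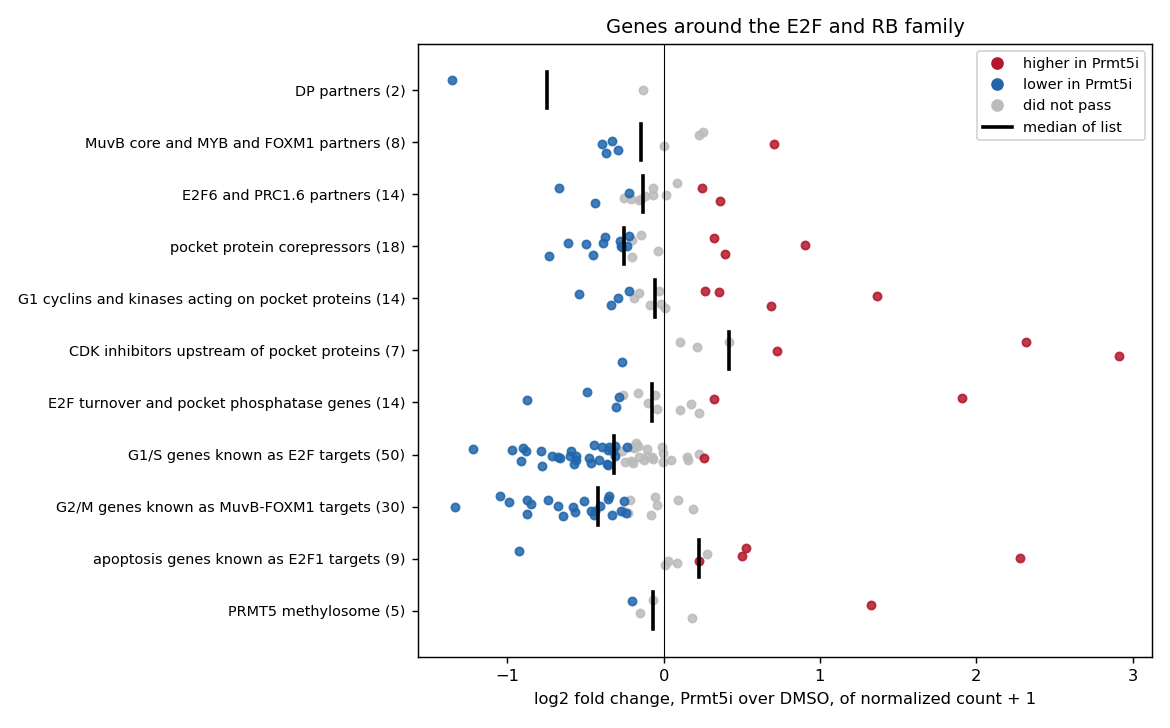
Log2 fold change of each measured gene in the lists around the E2F and RB family, Prmt5i over DMSO, on the scale of normalized count + 1 (red, higher and blue, lower at an adjusted p under 0.05; grey, did not pass; black line, median of the list). Genes of G1/S and G2/M lie mostly left of 0, with medians of -0.32 and -0.42. Of 7 CDK inhibitor genes 3 are red, and 1 lies left of 0.

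**Figure D5:**
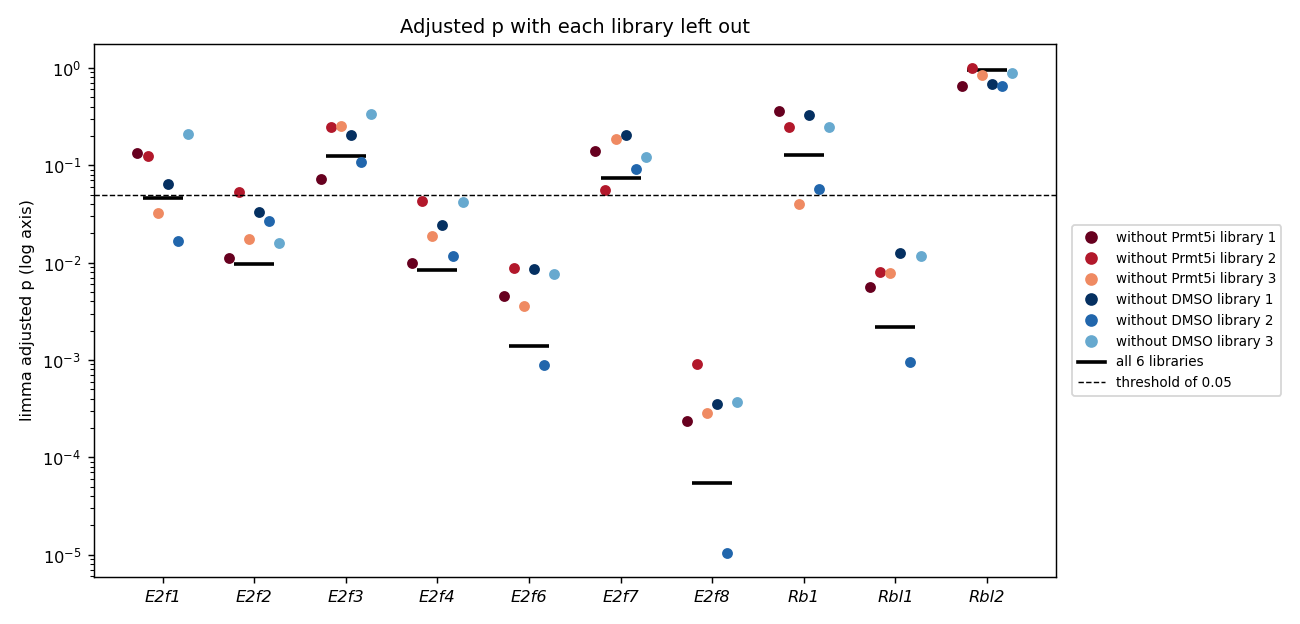
Limma adjusted p (log axis) of each member with all 6 libraries (black line) and with each library left out (points). E2f4, E2f6, E2f8 and Rbl1 stay under 0.05 in all 6 cases, whereas E2f1 crosses it in 4 and E2f2 in 1.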

How the data were processed

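The authors deposited 1 table of a normalized signal, a value for each of 11644 genes in 6 libraries. The values are read counts scaled by size factors: 100% of each column were whole multiples of 1 step (tolerance 1e-06), and median-of-ratios factors of the recovered reads equalled the inverse steps. Tools named in the submitters' processing notes, without roles, are DESeq 1.16.0, HTSeq 0.6.0, TopHat2 2.0.10 and CASAVA 1.8.2, and the build is mm10. Poly-A RNA went into stranded libraries, per the labels' protocols. No gene has fewer than 10 reads in its highest library.

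The test was limma-trend (R 4.3.3, limma 3.58.1) across all genes, on the log2 of the normalized count + 1, without a block for the replicate number. It was two-sided, and p-values were adjusted by Benjamini-Hochberg and held to 0.05. This scale understates changes of low genes. Count tests on recovered reads used edgeR 4.0.16, which called 5291 genes, and DESeq2 1.42.0. The tests were also run on simulated counts with far fewer changed genes than were called here, and no outcome of that run is used. Members were taken by symbol, not by a measured value, but members and lists were chosen with earlier results of these data known. All 10 members were named, with Prmt5, up to 4 called genes of each list with the smallest adjusted p, and the 3 genes nearest in pattern to the member with the largest fall; others were named after their values were seen. A result on a listed gene that this rule would name is not reported here. Positions are from GENCODE on mm10. No pair of libraries in a group matched to within sampling noise (chi-square per degree of freedom at least 9.43).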

Additional observations from a re-analysis of the deposited data

How the results depend on the processing

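The calls on E2f4, E2f6, E2f8 and Rbl1 kept their direction and their side of the threshold under all 14 alternatives run (other tests, scaling, pseudocounts, a filter on low values, a replicate block and leaving out each library). The number of members lower in Prmt5i was 6, 5 with DESeq2, and 4 to 6 with a library left out. The number higher was 0, and was 0 to 1 with a library left out, the 1 being Rb1 without Prmt5i library 3. Over all genes 5418 were called, 4479 to 5932 under the other alternatives and 4145 to 5346 with a library left out. With a library left out Rbl2 ran from -0.058 to 0.055 on the log2 scale (-0.009 with all 6), turning positive without DMSO library 1 (0.055), Prmt5i library 2 (0.002) or Prmt5i library 3 (0.027) (limma adjusted p at least 0.646). With TMM factors the median log2 fold change of all genes moved by -0.02.

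With the replicate number as a block 6 members were lower and 0 higher, as without it, and 5932 genes were called. Deviations of libraries with the same number correlated at 0.165, 0.05 and 0.205, and each library correlated best with its own number, a hint from the data and not from the design. The block raised the falls among the Polycomb partners of E2F6 to 5. The share of the summed E2f level held by E2f7 was 3.45% in Prmt5i and 3.15% in DMSO, and 5.70% in Prmt5i and 5.22% in DMSO with mean transcript lengths; the other shares moved by less than 1 percentage point. Counting error bears most on E2f7, which had the fewest reads of the 10 members (179 in its lowest library).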
